A study of Mus musculus with 6 samples.

Results

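The genes of the proteasome were followed in RNA-seq libraries of the sensory epithelium of the cochlea, taken from mice overexpressing Kir2.1 (Kir2.1-OE) and from their control littermates. The members were all gene symbols that consist of Psma, Psmb, Psmc, Psmd, Psme, Psmf or Psmg and a number, which gave 48 of the 24411 symbols in the count files. Rows whose symbol goes on after the number were not counted, and there were 2 of these, Psmc3ip and Psme2b. Each genotype was represented by 3 libraries, and each library came from 1 pool of 8 cochleae of 4 mice of either sex at postnatal day 9. Kir2.1-OE mice carried Otof-rtTA on 1 allele (Otof rtTA+/−) together with 1 tet-o allele of Kir2.1-IRES-tau-lacZ, which encodes an inwardly rectifying K+ channel. Controls were Otof rtTA+/− without the Kir2.1 allele, so that the heterozygous change at Otof was common to both groups. Both were on the C57BL/6N background. Their mothers received doxycycline (DOX) with their water (0.5 mg/ml) while pregnant and while nursing. The paper describes this supply to the females as unbroken since conception. The promoter of Otof (otoferlin) directs expression mainly to the inner hair cells (IHCs), whereas the pools also held supporting cells, nerve fibres and other tissue.

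The proteasome is the protease complex that degrades proteins tagged with ubiquitin in the cytoplasm and nucleus. Its core particle is a barrel of alpha and beta rings, in which the beta subunits Psmb5, Psmb6 and Psmb7 cut the substrate. The regulatory particle caps the barrel, binds ubiquitin through its lid and base, removes it, and unfolds the substrate with a ring of ATPases. Interferon-induced cells and cells of the immune system exchange the cutting subunits for Psmb8, Psmb9 and Psmb10 and thereby form the immunoproteasome, which favours peptides for antigen presentation. Other factors, the activators, open the barrel without the regulatory particle, and dedicated chaperones assemble each particle.

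Levels are given as normalized counts, the number of reads assigned to a gene after the libraries were scaled to a common size by edgeR's TMM method. Where 3 values are given for a genotype, they are those of its pools 1, 2 and 3, with Kir2.1-OE before control. Libraries held between 35430940 and 41205047 assigned reads, so that 3 reads made up at most 8.47e-06% of a library, a limit that covers counting error only. Kcnj2, which encodes Kir2.1, had between 2213 and 3813 normalized counts in the Kir2.1-OE pools and between 226 and 236 in the controls, as the labels of all 6 libraries state. Summed markers of macrophages (12 genes, 9313 to 9961 against 9046 to 9582) and of lymphocytes (6 genes, 33.9 to 59.5 against 37.7 to 82.3) overlapped between Kir2.1-OE and control pools. Markers of spiral ganglion neurons (6 genes) summed to 13789 to 35166 in Kir2.1-OE and 6889 to 10724 in control pools, inner hair cell markers (7 genes) to 40190 to 46405 and 28216 to 30750, and endothelial markers (5 genes) to 5640 to 6071 and 3319 to 4402, with no overlap. Erythroid markers (5 genes) were lower in the Kir2.1-OE pools, at 10855 to 13789 against 17918 to 44665. These sums are not corrected for transcript length. The inner hair cell list includes a gene that the paper uses as a marker of hair cells in general. Its values are therefore not particular to inner hair cells. In the fit with length and GC offsets, described below, the median log2 fold change of the inner hair cell markers was 0.0095 (2 higher and 1 lower at the adjusted p-value). It was 1.19 for the neurons (4 higher), 0.42 for the endothelium (4 higher) and -0.74 for the erythroid markers (0 lower). For the 12 macrophage markers it was 0.15, with 3 higher and 0 lower at the adjusted p-value. For the 2 lymphocyte markers that were tested it was -0.14, with 0 called. Of all genes, 13.1% were higher and 21.7% lower in that fit. In bulk tissue, fewer cells of a type and less RNA per cell cannot be told apart, and the part of these shifts in the results below was not tested.

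Promoter sequences of the members that mark the range of the comparison are shown first. Psma5 had the lowest log2 fold change of the core rings and Psmd11 was the only member higher at the adjusted p-value. Psmb5 and Psmb6 are cutting subunits of the ordinary core, and Psmb10 is the most abundant of the inducible ones. The sequences are RefSeq's on GRCm38.p6, run 5′ to 3′ on the strand of the gene and end at the base before its annotated start, except that the last 27 bases of Psmb5 and the last 52 of Psmb10 lie in an annotated UTR of GENCODE and were left out. The windows are chr3:108256676-108256925 on the + strand for Psma5, chr14:54618023-54618245 on the − strand for Psmb5, chr11:70525107-70525356 on the + strand for Psmb6, chr8:105938445-105938642 on the − strand for Psmb10 and chr11:80428365-80428614 on the + strand for Psmd11. Capitals mark a match to any of the motifs searched, on either strand.
Psma5: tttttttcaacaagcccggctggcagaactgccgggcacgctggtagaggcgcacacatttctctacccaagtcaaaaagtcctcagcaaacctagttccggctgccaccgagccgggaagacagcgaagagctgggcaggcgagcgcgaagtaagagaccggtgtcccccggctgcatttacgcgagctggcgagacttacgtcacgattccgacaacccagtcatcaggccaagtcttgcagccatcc
Psmb5: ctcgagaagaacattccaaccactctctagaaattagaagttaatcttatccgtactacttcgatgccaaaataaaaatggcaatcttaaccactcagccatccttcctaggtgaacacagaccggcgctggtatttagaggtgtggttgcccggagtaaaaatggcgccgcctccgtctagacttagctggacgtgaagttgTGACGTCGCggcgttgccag
Psmb6: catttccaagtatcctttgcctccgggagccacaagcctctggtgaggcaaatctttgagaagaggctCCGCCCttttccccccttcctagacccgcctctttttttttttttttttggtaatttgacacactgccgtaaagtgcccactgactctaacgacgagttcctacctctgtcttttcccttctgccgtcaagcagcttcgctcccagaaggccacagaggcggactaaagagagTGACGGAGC
Psmb10: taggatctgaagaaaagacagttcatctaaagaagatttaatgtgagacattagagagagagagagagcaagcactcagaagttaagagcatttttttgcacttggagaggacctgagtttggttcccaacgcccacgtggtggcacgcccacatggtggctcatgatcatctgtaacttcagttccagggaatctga
Psmd11: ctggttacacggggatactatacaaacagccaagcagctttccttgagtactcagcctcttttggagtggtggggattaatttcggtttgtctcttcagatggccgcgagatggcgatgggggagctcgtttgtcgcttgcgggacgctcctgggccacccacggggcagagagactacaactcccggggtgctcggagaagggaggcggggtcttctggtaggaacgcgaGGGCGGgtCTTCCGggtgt

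Of the 48 members, 40 had a promoter in the RefSeq table, with 43 annotated starts, and the 250 bases before each start were searched on both strands. Psma8, Psmb1, Psmb2, Psmb7, Psmc3, Psmd3, Psmd7 and Psmg2 were not among them. GGGCGG, the GC box, was found in 23 of the 43 windows (53.5%) and in 32.7% of all 32851 promoters of the table. CGGAAG, the core of ETS factor sites, was found in 20 windows (46.5%) and in 13.6% of all promoters. TGANNNNGC, the core of the antioxidant response element to which Nfe2l1 and Nfe2l2 bind with small Maf proteins, was found in 17 windows (39.5%) against 35.2%, and CCAAT, the site of the Nfy complex, in 14 (32.6%) against 33.8%. The full element TGACTCAGC, present in 0.39% of all promoters, and the cyclic AMP response element TGACGTCA, present in 1.55%, were in none of the members' windows. TTCNNNGAA, a STAT site, was found in 2 windows, those of Psmb8 and Psmg1, against 7.02% of all promoters, and GAAANNGAAA, the core of interferon-stimulated response elements, in the 3 windows of Psmb3, Psmd4 and Psmd9, against 2.98%. The matches can overlap, as the GC box of Psmb9 does with its TGANNNNGC match. In the printed windows, Psmb5 held TGANNNNGC from 47 to 39 bases before its start and Psmb6 from 9 to 1. Psmb6 also held a GC box on the opposite strand, from 182 to 177 bases before its start. Psmd11 held a GC box from 19 to 14 bases and, on the opposite strand, CGGAAG from 11 to 6 bases before its start. Psma5 and Psmb10 held none of the motifs.

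Most proteasome genes had lower normalized counts in Kir2.1-OE than in control pools. Of the 48 members, 47 passed the filter on low counts and were tested, and 11 of these were lower with a fold change above 1.5 and an adjusted p-value under 0.05, where 5.08% of all 15303 genes tested were called lower. No member was 1.5-fold higher, the highest standing at a log2 fold change of 0.19, whereas 15.5% of all genes were called higher. At the adjusted p-value alone, 35 members were lower (23.5% of all genes) and 1 was higher (27.3%). The normalized counts of the 3 Kir2.1-OE pools lay below those of all 3 control pools for 35 members (29.9% of all genes) and above them for 2 (31.7%). The median log2 fold change over the 47 members was -0.40, with a range from -0.77 to 0.19, and the median over all genes tested was 0.0096. Summed over the 48 members, normalized counts were 137851, 149027 and 155990 in Kir2.1-OE pools against 192835, 190968 and 192449 in control pools. Kir2.1-OE replicate 1 was the lowest of its group for 36 of the 47 members and replicate 3 the highest for 33. Without Kir2.1-OE replicate 1, 7 members were lower at the fold change above 1.5, and Psmb1, Psmb3, Psmb4, Psmb5 and Psmb6 no longer were.

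**Figure D1:**
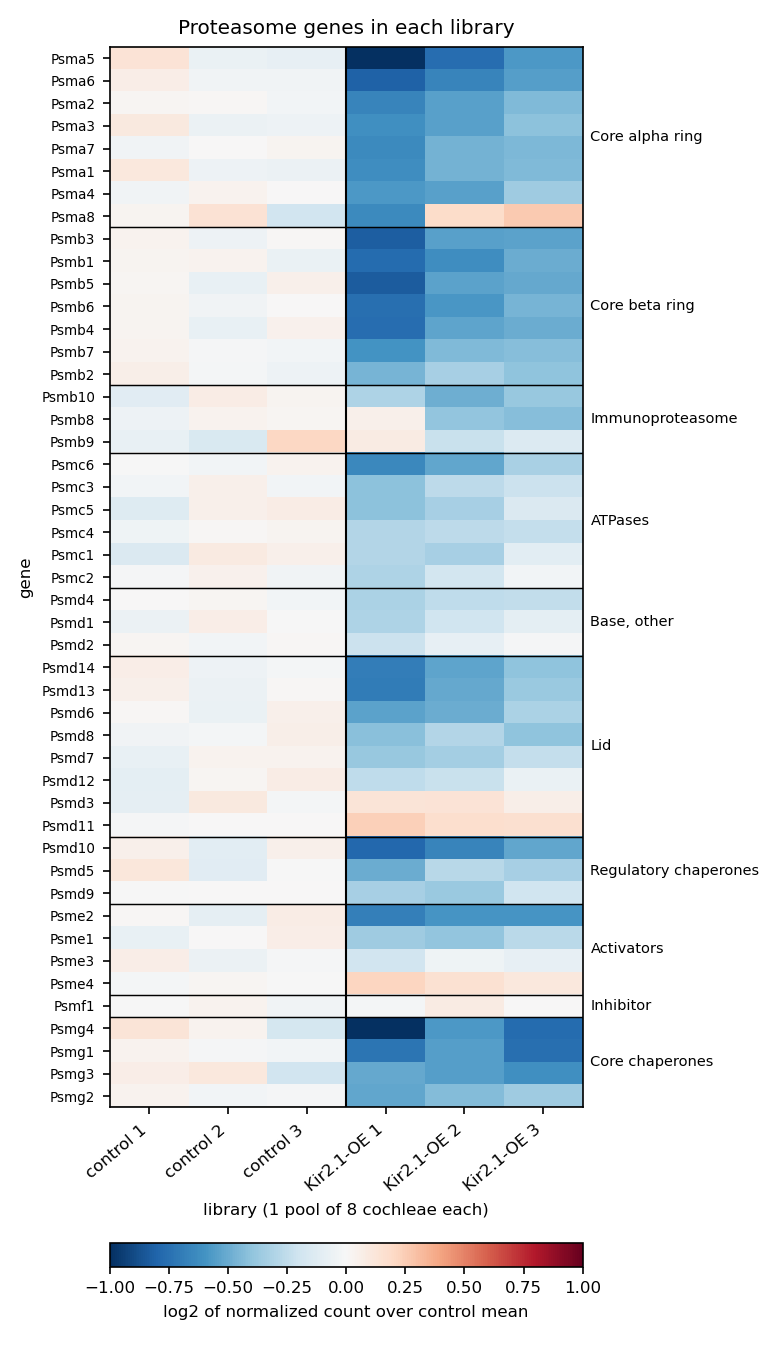
Log2 ratio of the normalized count of each tested proteasome gene (rows, grouped by class) in each library (columns) to the mean of the 3 control libraries, with blue for lower and red for higher values and the colour scale ending at -1 and 1. Most rows are blue in all 3 Kir2.1-OE libraries and darkest in the core rings and core chaperones, and the rows of Psmd11, Psmd3 and Psme4 are red in all 3.

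These fold changes moved with transcript length. Over all genes tested with a known length (n = 15198), the log2 fold change had a Spearman rho of 0.56 with the length of the longest annotated transcript, and over the 47 members, which share these 6 libraries, rho was 0.65. The members are short, with a median longest transcript of 1907 nucleotides against 3382 over all genes. Among genes of 1000 to 1500 nucleotides the median log2 fold change was -0.37 over all 1094 genes and -0.51 over the 11 members, and 51.8% of all these genes were lower at the adjusted p-value. From 1500 to 2000 nucleotides it was -0.25 over 1408 genes and -0.33 over the 14 members, from 2000 to 3000 nucleotides -0.13 over 3209 genes and -0.30 over 11 members, and below 1000 nucleotides -0.50 over 654 genes and -0.62 over 5 members. The model was therefore fitted also with length and GC offsets, which correct every gene in every library by that library's own trend with transcript length and GC content. With these offsets no member reached 1.5-fold, the lowest standing at -0.47, whereas 3.94% of all genes were called lower and 5.91% higher above that fold change. At the adjusted p-value 23 members were lower at the adjusted p-value (21.7% of all genes) and Psmd11 alone was higher (13.1%), and the groups were apart with Kir2.1-OE lower for 30 members (31.1%) and higher for 1 (18.2%). The median over the members was then -0.20, against -0.056 over all genes, and rho with length over the members was 0.092. Of the fits with offsets that left out 1 library, those without Kir2.1-OE replicate 1, control replicate 3 and control replicate 1 had the fewest lower members, 10, 11 and 15. The share of all genes in these fits is not given, so these counts cannot be set against it. With lengths from the longest protein-coding transcript (protein-coding offsets) 17 members were lower at the adjusted p-value (3173 of all 15303 genes). With the median annotated transcript, which follows the short fragments of the annotation, there were 36, also without a share of all genes beside it. In the fits on all 6 libraries without offsets and with the length and GC offsets, the share of members lower at the adjusted p-value is thus above that of all genes. The calls above 1.5-fold are found only where length is not taken into account or is taken from the median transcript (10 members).

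**Figure D2:**
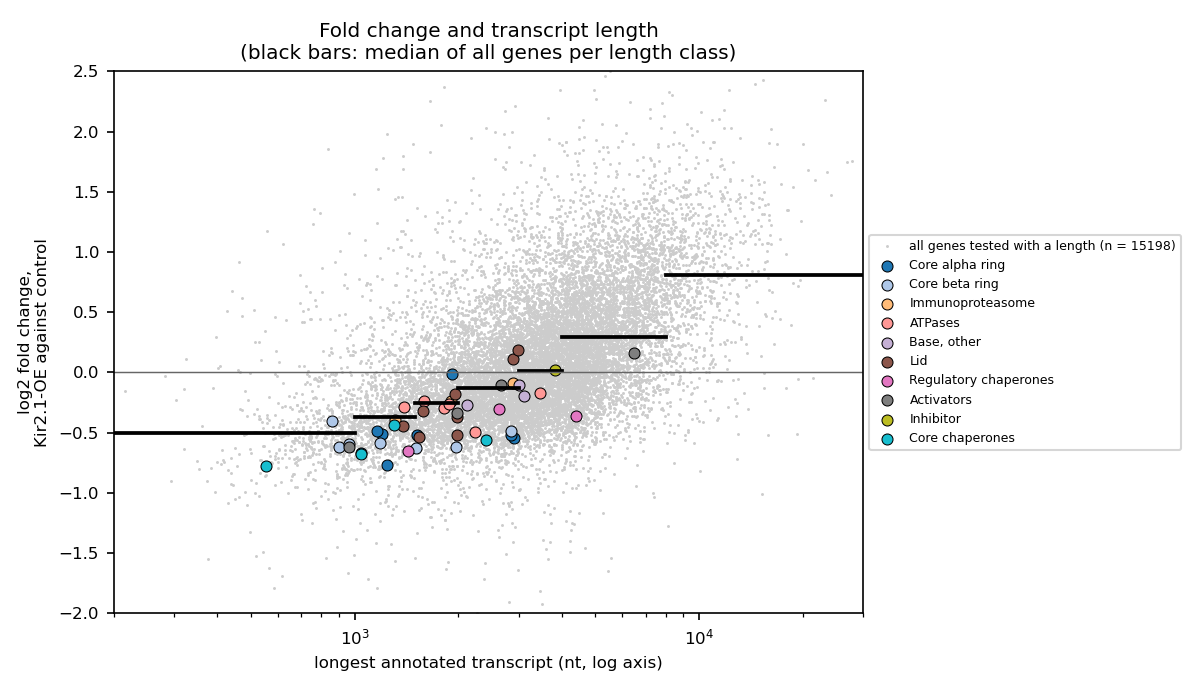
Log2 fold change of Kir2.1-OE against control without offsets (y axis) and length of the longest annotated transcript in nucleotides (x axis, log scale) for all genes tested (grey, 27 of 15198 outside the axes) and for the 47 proteasome genes (coloured by class). Black bars are the median of all genes in each length class and rise from -0.50 below 1000 nucleotides to 0.81 from 8000 nucleotides on; the median of the proteasome genes lies below the bar in each of the 6 classes that hold any.

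The beta ring of the core was lower throughout. All 7 of its ordinary subunits were lower at the adjusted p-value (23.5% of all genes), 5 of them above 1.5-fold (5.08%). The median log2 fold change was -0.60 without and -0.28 with the offsets, under which 6 were lower (21.7% of all genes). With the protein-coding offsets 3 were lower (3173 of all 15303 genes), Psmb1, Psmb4 and Psmb5. Psmb3 at -0.19, Psmb6 at -0.19 and Psmb7 at -0.11 did not pass the adjusted p-value there. Psmb5, the chymotrypsin-like cutting subunit (chromosome 14, 54614119 to 54618022, − strand, mm10), had 3195, 3917 and 3977 normalized counts in Kir2.1-OE pools and 5758, 5386 and 5886 in control pools. The 3 Kir2.1-OE pools were all below the controls, replicate 1 by the most, and the log2 fold change was -0.62 ± 0.093 (SE, n = 3 pools per group), with an adjusted p of 0.000708 (edgeR's quasi-likelihood test, adjusted by the Benjamini-Hochberg method). Psmb6, the caspase-like cutting subunit, had 4014, 4523 and 4913 normalized counts in Kir2.1-OE and 6907, 6616 and 6804 in control pools, again without overlap, and a log2 fold change of -0.60 ± 0.083. Psmb7, the trypsin-like cutting subunit, had 4514, 5036 and 5088 against 7012, 6777 and 6690, with a log2 fold change of -0.48 ± 0.073. The other 4 subunits have structural roles in the ring. Psmb1 had 4830, 5361 and 5848 against 8404, 8429 and 7857 normalized counts (log2 fold change -0.62), and Psmb3 had 2882, 3499 and 3511 against 5221, 4909 and 5147 (log2 fold change -0.63, the lowest of the ring). Psmb4 had 5740, 6764 and 6887 against 9925, 9213 and 10036 normalized counts (log2 fold change -0.59). None of these groups overlapped. Psmb2 had the smallest difference, with 2463, 2707 and 2578 against 3553, 3369 and 3296 and a log2 fold change of -0.40 ± 0.068, which was 0.024 ± 0.064 with the offsets, where its groups overlapped.

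The alpha ring, which gates the barrel, behaved alike except for its testis-specific subunit. Of its 8 members, 7 were lower at the adjusted p-value (23.5% of all genes), 2 of them above 1.5-fold (5.08%). The median log2 fold change was -0.52 without and -0.29 with the offsets, where 5 were lower (21.7% of all genes). Psma5 (chromosome 3) had 2431, 2890 and 3292 normalized counts in Kir2.1-OE and 5376, 4685 and 4630 in control pools. Its groups did not overlap, and its log2 fold change was -0.77 ± 0.11, or -0.44 ± 0.10 with the offsets, where its adjusted p was 0.00785 in the same edgeR quasi-likelihood test. Psma6 had 3209, 3555 and 3851 against 5882, 5493 and 5503 normalized counts and a log2 fold change of -0.67 ± 0.081, which was -0.26 with the offsets. Psma1, Psma2, Psma3, Psma4 and Psma7 had log2 fold changes between -0.54 and -0.49, and none of them overlapped between the groups. With the offsets, Psma1 at -0.12 and Psma4 at -0.093 no longer passed the adjusted p-value. Psma7 stood at -0.36, but at -0.17 with the protein-coding offsets, where it did not pass either. Psma8, which replaces Psma7 in the germ line, had only 16.4, 29.0 and 30.7 normalized counts against 26.1, 28.2 and 22.4, and its difference was not detectable at this depth (log2 fold change -0.013 ± 0.33).

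The immunoproteasome subunits were scarcer than the ordinary beta subunits and differed less. In the controls Psmb8, Psmb9 and Psmb10 had a median of 163 normalized counts per kilobase of the longest transcript, against 4178 for the 7 ordinary beta subunits, 3920 for the alpha ring, 2461 for the ATPases and 2510 for the lid. They ranged from 23.9 for Psmb9 to 628 for Psmb10, which lay above the medians of the core chaperones (602) and the regulatory chaperones (502). Psmb10, the inducible counterpart of Psmb7, had 664, 587 and 633 normalized counts in Kir2.1-OE and 761, 869 and 839 in control pools. Of the 3 it alone was without overlap and lower at the adjusted p-value, with a log2 fold change of -0.39 ± 0.092 (adjusted p = 0.0065 in edgeR's quasi-likelihood test), and with the offsets it was at -0.17 ± 0.10 with an adjusted p of 0.203. Psmb8, the counterpart of Psmb5, had 321, 237 and 231 against 299, 318 and 315 normalized counts. Kir2.1-OE replicate 1 exceeded every control and the other Kir2.1-OE pools lay below all controls, and the log2 fold change of -0.24 ± 0.15 did not pass the test. Without replicate 1 it was -0.42 and passed (adjusted p = 0.0373 in edgeR's quasi-likelihood test), so the call depended on that pool. Psmb9, the counterpart of Psmb6, had 72.9, 59.0 and 62.4 against 65.2, 61.8 and 79.4 normalized counts, with overlapping groups and a log2 fold change of -0.086 ± 0.22. Psmb9 (chromosome 17, 34181987 to 34187764, − strand) and Psmb8 (34197721 to 34201454, + strand) lie on either side of the peptide transporter gene Tap1, whose log2 fold change was 0.068, and the annotated ends of Psmb9 and Tap1 overlap, so that reads there can belong to either gene where strand was not used. Psmb11, the thymus-specific cutting subunit that lies 3410 bases from Psmb5, had between 1.82 and 13.2 normalized counts per library and was not tested.

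Within each library, the inducible subunit was set against the ordinary one whose place it takes. The normalized count of Psmb9 was 1.82%, 1.30% and 1.27% of that of Psmb6 in the Kir2.1-OE pools and 0.944%, 0.934% and 1.17% in the controls. All Kir2.1-OE values lay above the controls, and the log2 ratio was higher by 0.52 (exact two-sided permutation test, p = 0.1, the smallest p that 3 against 3 pools allow). Psmb8 was at 10.1%, 6.05% and 5.80% of Psmb5 against 5.19%, 5.90% and 5.34%, a difference of 0.37 in the log2 ratio (exact permutation p = 0.2) of which 0.11 remained without Kir2.1-OE replicate 1. Psmb10 was at 14.7%, 11.6% and 12.4% of Psmb7 against 10.9%, 12.8% and 12.5%, a difference of 0.096 (exact permutation p = 0.6) that was at -0.000762 without replicate 1. The Benjamini-Hochberg adjusted values over these 3 pairs were 0.3, 0.3 and 0.6. With the offsets the differences were 0.19 for Psmb8, 0.060 for Psmb9 and 0.13 for Psmb10. The last 2 depended on the transcript length used. With the protein-coding offsets the log2 fold changes were 0.16 for Psmb9 and -0.19 for Psmb6, and -0.16 for Psmb10 and -0.11 for Psmb7. A change in the ratio was not shown for any pair. With 3 against 3 pools the exact permutation test cannot give a p below 0.1, so it cannot decide whether the ratios changed or were the same.

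The subunits of the regulatory particle had smaller differences than the core rings. Of its 17 ATPase, base and lid members, 11 were lower at the adjusted p-value (23.5% of all genes) and 1 was higher (27.3%). None passed 1.5-fold, and the median log2 fold change was -0.27 against -0.54 over the 15 members of the core rings. With the offsets these medians were -0.11 and -0.28, with 4 of 17 and 11 of 15 members lower (21.7% of all genes). With the protein-coding offsets they were closer, at -0.12 and -0.19, with 4 of 17 and 7 of 15 members lower (3173 of all 15303 genes). In both offset fits the regulatory subunits were thus called lower at a share near that of all genes. In each library, the summed normalized counts of the core rings were divided by those of the 17 regulatory subunits. This ratio was 0.764, 0.809 and 0.805 in the Kir2.1-OE pools and 1.04, 0.959 and 0.965 in the control pools. The groups did not overlap, and with the offsets the ratio lay between 0.819 and 0.850 in Kir2.1-OE and between 0.917 and 0.979 in control pools, also without overlap. These ratios are a description, as 3 pools against 3 cannot give an exact permutation p below 0.1.

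Among the 6 ATPases, which thread the substrate into the core, 5 were lower at the adjusted p-value (23.5% of all genes), and 1 with the offsets (21.7%). Psmc6 was the lowest, with 2476, 2710 and 3088 normalized counts in Kir2.1-OE and 3859, 3798 and 3971 in control pools, no overlap, and a log2 fold change of -0.49 ± 0.086 (-0.21 with the offsets, adjusted p = 0.0428 in edgeR's quasi-likelihood test). Psmc2 was at the other end, with 3156, 3443 and 3829 against 3877, 4022 and 3809 normalized counts and a log2 fold change of -0.17 ± 0.081 that did not pass the test. Psmc1, Psmc3, Psmc4 and Psmc5 were between -0.29 and -0.24. Of the large scaffold and ubiquitin-binding subunits of the base, Psmd4, a ubiquitin receptor, was lower, with 3268, 3401 and 3421 against 4077, 4120 and 3998 normalized counts and a log2 fold change of -0.27 ± 0.062. With the offsets none of the 3 base subunits passed the adjusted p-value, and Psmd4 was at -0.16 (adjusted p = 0.0596 in edgeR's quasi-likelihood test). The scaffold Psmd2 had 9040, 9891 and 10387 against 10597, 10269 and 10579, with overlap, and a log2 fold change of -0.10 ± 0.075, and the scaffold Psmd1 stood at -0.20 with an adjusted p of 0.0554 in the same edgeR test.

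The lid held members on both sides of 0. Psmd14, the enzyme that removes ubiquitin chains from the substrate, was the lowest of the lid, with 2207, 2480 and 2696 normalized counts in Kir2.1-OE and 3746, 3440 and 3519 in control pools. The groups did not overlap, and the log2 fold change was -0.54 ± 0.084, or -0.22 with the offsets. Psmd13, a scaffold of the lid, was at -0.52 and kept -0.40 with the offsets, and Psmd6, Psmd7 and Psmd8 were between -0.44 and -0.32 and lower at the adjusted p-value. With the offsets Psmd8 remained lower at -0.23, whereas Psmd6 at -0.12 and Psmd7 at -0.064 did not pass it and their groups overlapped. Psmd12 and Psmd3 did not pass it in either fit, at -0.18 and 0.11 without the offsets and at 0.030 and -0.0016 with them. Psmd11, which is known to raise proteasome assembly when it is abundant, was the exception, with 1857, 1771 and 1753 normalized counts in Kir2.1-OE and 1558, 1578 and 1580 in control pools. All Kir2.1-OE pools were above all controls, the controls lay close together, and the log2 fold change was 0.19 ± 0.065 (adjusted p = 0.0348 in edgeR's quasi-likelihood test). This call was lost without any 1 of the 6 libraries (adjusted p between 0.0629 and 0.119 in the same edgeR test) and in DESeq2's Wald test (adjusted p = 0.0551). With the offsets Psmd11 was at 0.38 ± 0.074 (adjusted p = 0.00463 in the edgeR test). It was at 0.23 with the protein-coding offsets (adjusted p = 0.0237 in the edgeR test). With offsets from the median transcript it was at 0.26 (adjusted p = 0.0124 in the edgeR test).

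**Figure D3:**
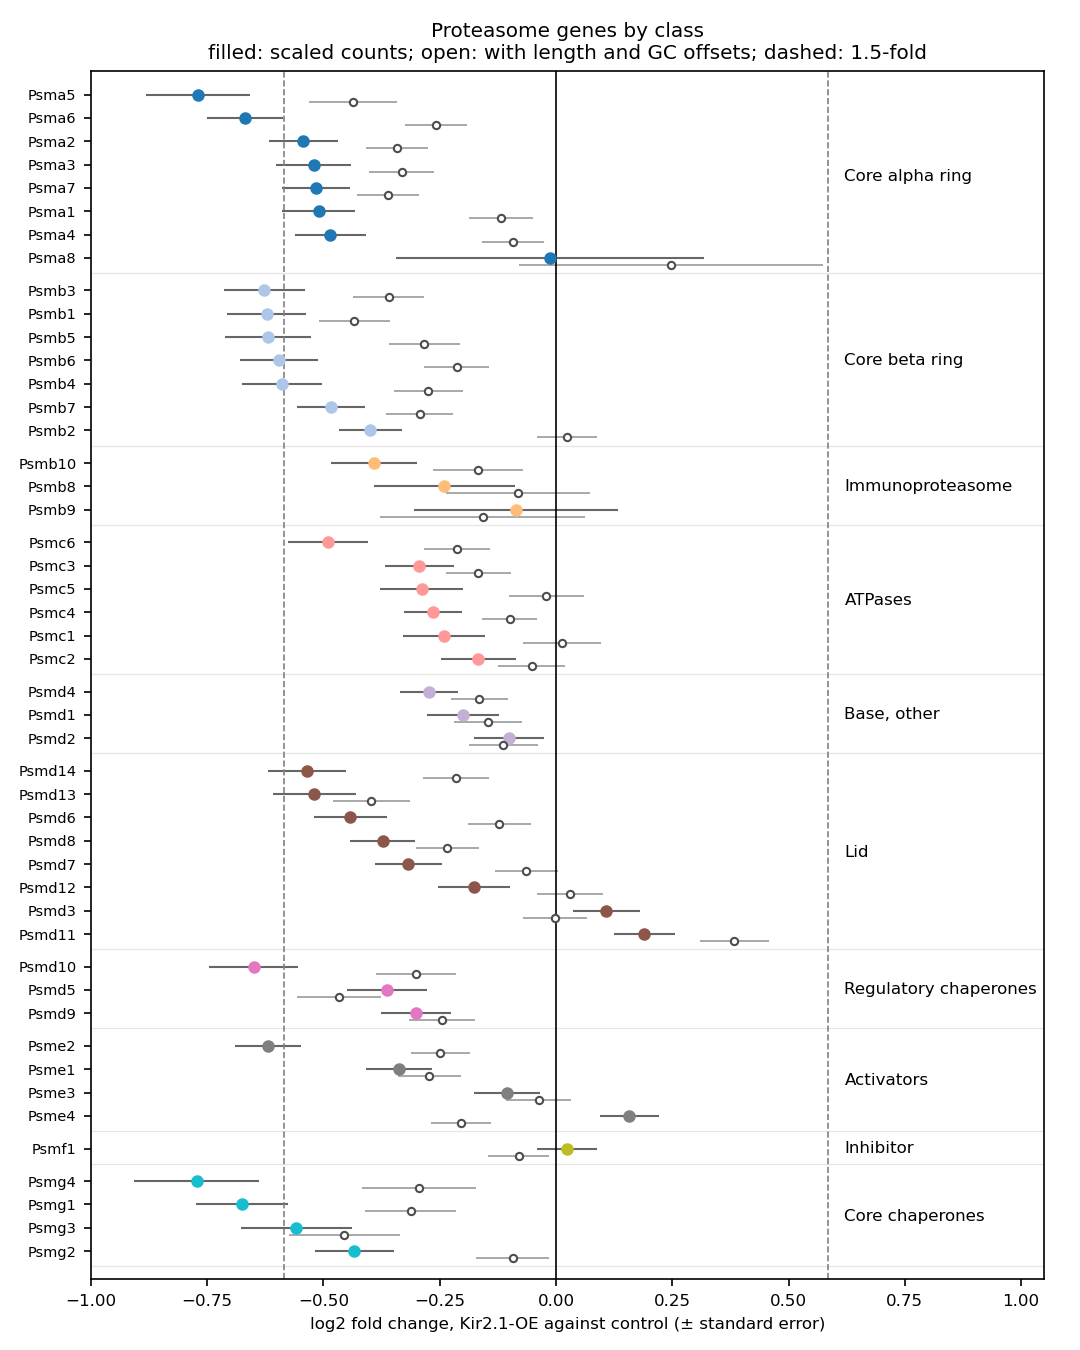
Log2 fold change of each tested proteasome gene (rows) in Kir2.1-OE against control pools, with its standard error, by class, from scaled counts (filled) and with length and GC offsets (open). Dashed lines mark 1.5-fold in each direction: 11 filled points and no open point lie beyond the left line, and Psmd11 is the highest of both fits.

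The assembly chaperones were lower as well. All 4 chaperones of the core, Psmg1 to Psmg4, which pair up to assemble the alpha ring, were lower at the adjusted p-value (23.5% of all genes). Their median log2 fold change was -0.62 without and -0.30 with the offsets, where 2 were lower (21.7% of all genes). With the protein-coding offsets 1 of the 4 was lower, near the share of all genes (3173 of 15303). Psmg4, the shortest member, had 305, 414 and 362 normalized counts in Kir2.1-OE and 671, 631 and 544 in control pools, and a log2 fold change of -0.77 ± 0.13. Psmg1 had 358, 407 and 352 against 610, 592 and 583 and a log2 fold change of -0.68 ± 0.10. Psmg2 had 575, 610 and 645 against 846, 809 and 817 and the smallest difference of the class, -0.43 ± 0.085, and Psmg3 was at -0.56. The groups of all 4 were apart. All 3 chaperones of the ATPase ring were lower both without and with the offsets. Psmd10 had 598, 654 and 723 against 1071, 960 and 1069 normalized counts (log2 fold change -0.65 ± 0.10, -0.30 with the offsets), and Psmd9 had 1048, 1024 and 1151 against 1317, 1327 and 1324 (-0.30 ± 0.075, -0.25 with the offsets). Psmd5, which has a long transcript of 4397 nucleotides, was at -0.36 without and -0.47 with the offsets, the lowest of all members in that fit.

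The activators and the inhibitor differed among themselves. Psme1 and Psme2, which together form the interferon-induced activator, were lower. Psme1 had 1554, 1512 and 1646 normalized counts in Kir2.1-OE and 1889, 1991 and 2074 in control pools (log2 fold change -0.34 ± 0.071), and Psme2, its partner 5911 bases away on chromosome 14, had 1506, 1603 and 1604 against 2427, 2272 and 2540 (-0.62 ± 0.071). Neither pair of groups overlapped, and with the offsets they were lower at -0.27 and -0.25. With the protein-coding offsets Psme2 was at -0.23, whereas Psme1 was at -0.017 and was not called (adjusted p = 0.867 in edgeR's quasi-likelihood test). Reads of Psme2 can be shared with its near copy Psme2b, which had a log2 fold change of -0.50. Psme3, the nuclear activator, had 3485, 3866 and 3750 against 4157, 3826 and 3956, with overlap, and a log2 fold change of -0.10 ± 0.070. Psme4, the activator that acts on histones and has the longest transcript of all members (6491 nucleotides), had 4637, 4458 and 4307 against 3959, 4052 and 4003. Its groups did not overlap, yet its log2 fold change of 0.16 ± 0.064 had an adjusted p of 0.0649 in edgeR's quasi-likelihood test, and it turned to -0.20 ± 0.064 with the offsets (adjusted p = 0.0339). With offsets from the median transcript it was higher, at 0.22 (adjusted p = 0.027 in edgeR's quasi-likelihood test), so that its direction depended on the length used. Psmf1, the inhibitor of the core, had 2398, 2569 and 2435 against 2424, 2490 and 2372 normalized counts and was at 0.023 ± 0.065.

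**Figure D4:**
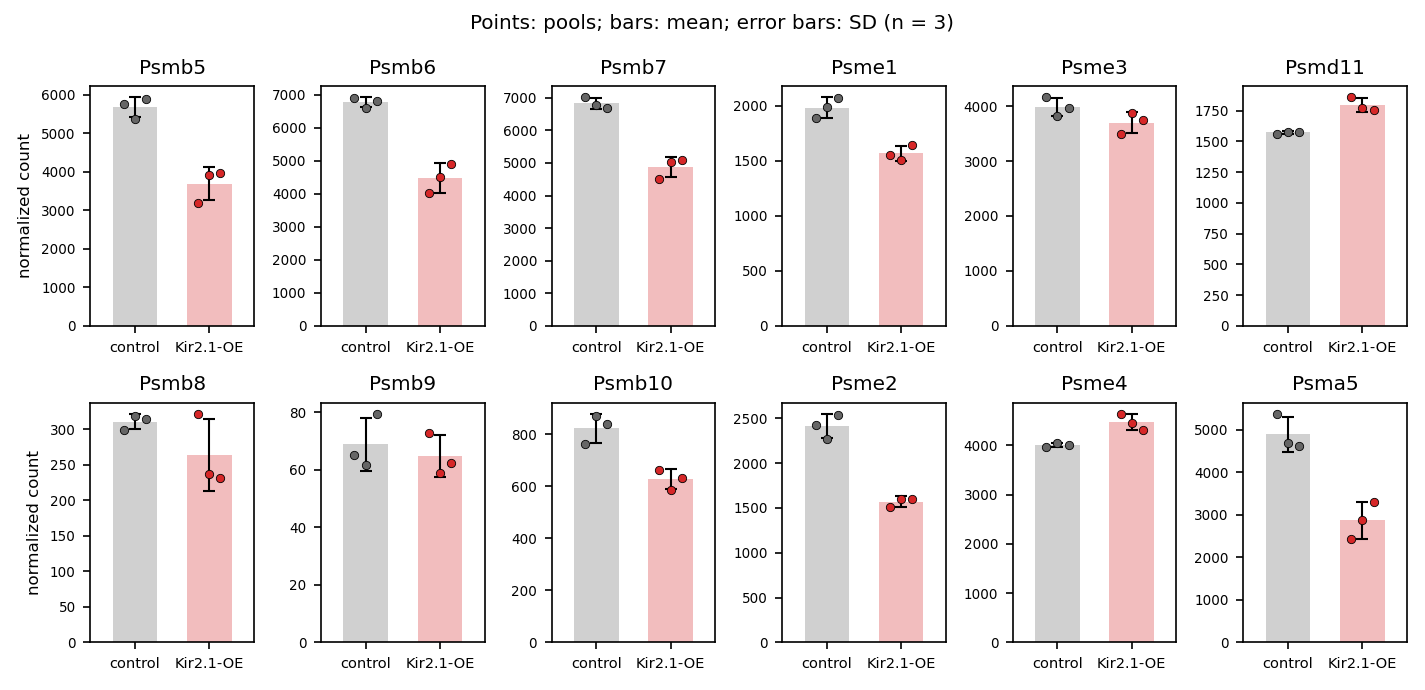
Normalized counts (y axes, from 0) of the ordinary cutting subunits Psmb5, Psmb6 and Psmb7, their inducible counterparts Psmb8, Psmb9 and Psmb10 below them, the activators Psme1 to Psme4, Psmd11 and Psma5 in control (grey) and Kir2.1-OE (red) pools, with points for pools, bars for means and error bars for SD (n = 3 each). The groups are apart for Psmb5, Psmb6, Psmb7 and Psmb10 and overlap for Psmb8 and Psmb9.

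The genes around the proteasome were taken from lists of its known partners, whose counts at the adjusted p-value stand beside 23.5% lower and 27.3% higher over all genes tested, or 21.7% and 13.1% with the offsets. Of 12 further subunits and associated factors, 4 were lower and 1 higher at the adjusted p-value, and 6 and 0 in edgeR's fit with the offsets, where the highest stood at 0.048. Shfm1 (Sem1), a small lid subunit, was the lowest at -0.74 and passed 1.5-fold, and stood at -0.51 with the offsets, and Pomp, the maturation factor of the core named here after its values were seen, was at -0.52 and -0.64. AI314180 (Ecpas), an adaptor of the proteasome, was higher at 0.39 and at -0.024 with the offsets. Of 12 genes that govern proteasome transcription, 6 were higher and 2 lower, with a median log2 fold change of 0.28, and 2 were higher and 1 lower with the offsets, with a median of 0.019. Ddi2, the protease that activates Nfe2l1, was above 1.5-fold at 0.62, which turned to -0.11 with the offsets, and Nfyb was the lowest at -0.34. The factors Nfe2l1, Nfe2l2 and Nfe2l3, also named after their values were seen, were at 0.55, 0.39 and 0.39, and at 0.13, 0.53 and 0.48 with the offsets. Of 10 genes of ubiquitin and its activation, 6 were lower at the adjusted p-value, and 5 with the offsets. Rps27a, which encodes ubiquitin fused to a ribosomal protein, was the lowest without the offsets at -0.89 and passed 1.5-fold, and stood at -0.42 with them. Ube2d3, a ubiquitin-conjugating enzyme named after its values were seen, was at -0.51, at -1.17 with the offsets, the lowest of the list there and above 1.5-fold, and at -0.45 with the protein-coding offsets. Of 10 tested genes that deliver or unfold substrates, 1 was lower (Ufd1l, a partner of Vcp, at -0.23) and 2 were higher (Ubqln2, a shuttle factor, the most at 0.29), whereas with the offsets 3 were lower and 1 higher. Ufd1l was at -0.034 with the offsets and was not called there, nor with a term for the replicate number (-0.23). It was also not called in the fits without Kir2.1-OE replicate 1 (-0.19), control replicate 1 (-0.18) or control replicate 2 (-0.24). Of 13 tested genes of antigen processing, 1 was lower, B2m, the light chain of class I molecules, at -0.32 (0.19 with the offsets). Another 3 were higher, and without the offsets both shares were below those of all genes. With the offsets 0 were lower and 2 of the 13 were higher, a share near the 13.1% of all genes.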

How the data were processed

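The authors sequenced poly(A) RNA in read pairs, processed the reads with the nf-core RNA pipeline on mm10, and deposited expected counts per gene symbol from Salmon, estimates neither divided by length nor scaled. Versions, annotation and strand setting are not given in the sources used here. Libraries held 35430940 to 41205047 assigned reads; 6.95% of the estimates were not whole and all were rounded. Pools, not mice, are the replicates, so p-values measure the spread between pools. edgeR 4.0.16 (R 4.3.3) was run on all 6 libraries with genotype as the sole term, using TMM factors of 0.984 to 1.01, the 15303 genes that filterByExpr kept, and its quasi-likelihood test, adjusted by the Benjamini-Hochberg method. Normalized counts are rounded counts divided by the TMM library size and multiplied by its mean. The SE of a log2 fold change was its size divided by the square root of F. Transcript lengths and gene positions came from GENCODE vM21 on mm10; 23376 symbols matched directly, 670 by an older symbol and 365 not. Offsets used loess trends (span 0.4) on log2 length and GC content. The script was tested on simulated data.

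Members and lists were chosen with earlier results of these data known. Values in every library are given for the cutting subunits, activators and Psmf1, for the lowest and highest member of each class of 3 or more and for the 10 called members of lowest adjusted p; of the other lists, for each called gene and the lowest and highest gene, as fold changes. Promoters came from RefSeq (GRCm38.p6). Alternatives were other scalings (DESeq2's size factors, library size alone, upper quartile), no filter or a minimum of 10 counts, a replicate block, offsets from other lengths, each library left out, DESeq2 1.42.0, limma-voom (limma 3.58.1) and unrounded counts; offsets from the longest protein-coding transcript, and with libraries left out, were chosen after seeing the data. The deposited file of control replicate 1 carries another replicate number in its header than its label does. Same-numbered pools did not deviate together (Pearson r from -0.23 to -0.11), so the numbers were not taken as pairs. No 2 libraries of a group agreed within sampling noise (chi-square per degree of freedom 15.7 to 31.1). Some genes that this rule names are not reported here.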

Additional observations from a re-analysis of the deposited data

How the results depend on the processing

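DESeq2's size factors, library size alone, no filter, a minimum of 10 counts, limma-voom and unrounded counts left the counts of lower members within 1.5 times. Members lower above 1.5-fold numbered 18 under upper quartile scaling, 0 with the length and GC offsets, 0 with those and the replicate block, 0 with offsets from the longest protein-coding transcript, and 7 to 16 with 1 library left out. Members lower at the adjusted p-value numbered 23 with the offsets, 11 with offsets and the replicate block, 17 with offsets from the protein-coding transcript, and 10, 19, 19, 15, 16 and 11 with the offsets and, in turn, Kir2.1-OE replicates 1, 2 and 3 and control replicates 1, 2 and 3 left out (0 above 1.5-fold each time). For the fits with the offsets and 1 library left out, the share of all genes is not given. The replicate block alone left 34 lower and 0 higher, and same-numbered pools share only a number. The ratios between subunits were not run with the block. The 1 higher member was lost (0) under upper quartile scaling, DESeq2 and each library left out, and joined by another (2) with offsets from the median transcript. Over all genes, 1378 were lower above 1.5-fold under upper quartile scaling. Higher above 1.5-fold were 904 with the offsets, 743 with the block added and 813 by the protein-coding transcript, and at the adjusted p-value 2007, 1383 and 1785, with 2093 lower with the block added.

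Medians over all members were -0.49 (upper quartile), -0.20 (offsets), -0.20 (offsets and block) and -0.17 (protein-coding). Over the core rings they were -0.28, -0.29 and -0.19 in the 3 offset settings, and over the regulatory subunits -0.36 (upper quartile), -0.11, -0.12 and -0.12. Over the core chaperones they were -0.71 (upper quartile), -0.30, -0.31 and -0.23, and over the regulatory chaperones -0.45 (upper quartile). Over the activators they were -0.31 (upper quartile) and -0.14 (protein-coding), and over the immunoproteasome -0.078 (protein-coding). The immunoproteasome median was -0.42 to -0.17 with 1 library left out. The log2 ratio of Psmb10 to Psmb7 reached -0.000762 without Kir2.1-OE replicate 1 and ranged up to 0.17.

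The sign of some named genes turned. Given for the offsets, offsets with block and protein-coding offsets, AI314180 was at -0.024, -0.023 and -0.060, B2m at 0.19, 0.19 and 0.20, Ddi2 at -0.11, -0.10 and -0.20, Psmb2 at 0.024, 0.024 and 0.038, Psme4 at -0.20, -0.20 and -0.22, Psma8 at 0.25, 0.22 and 0.28, and Psmf1 at -0.080, -0.082 and -0.12. With the median transcript Psma8 was at 0.023, Psmf1 at -0.14 and Ubqln2 at -0.049. With the protein-coding transcript Psmb9 was at 0.16 and Psmc2 at 0.048, and Psmf1 was at -0.066 under upper quartile scaling. With 1 library left out Psma8 ranged from -0.18 to 0.21, Psmb9 from -0.19 to 0.029 and Psmf1 from -0.032 to 0.041. Apart from the length settings, for which the trend with length is given above, the cause was not tested. At this depth Psmb11 and Psma8 limit any statement about these subunits.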
